A study of Mus musculus with 46 samples.

Results

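The regions described here are stretches of mouse liver chromatin where the transcription factor CEBPb was called 27 h after the synthetic ligand TCPOBOP and not after its vehicle. They were chosen by the CEBPb calls themselves: peaks of the 8 CEBPb lists of 27 h were merged wherever they shared 1 bp or more, and a region was kept when at least 3 of the 4 TCPOBOP livers and 0 of the 4 vehicle livers had a peak in it. This gave 1468 of 92566 CEBPb regions, or 1.59%, called TCPOBOP-only regions below. Of these, 331 had a peak in all 4 TCPOBOP livers and 1137 in 3. Because the calls at 27 h chose the regions, the CEBPb contrast of that time is given without a test.

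The livers came from male CD-1 (ICR) mice that received 3 mg/kg TCPOBOP or vehicle alone, which was 1% DMSO in corn oil. At 27 h the same 8 livers, vehicle C1 to C4 and TCPOBOP D1 to D4, were used for CEBPb, CEBPa and RXRa (labelled RXR), and the labels give an age of 8 weeks. Both CEBP factors of 3 h came from 3 vehicle livers (A44 to A46) and 3 TCPOBOP livers (D44 to D46) of mice aged 7 weeks, and RXR in 3 vehicle livers (A1, A3, A4) and 3 TCPOBOP livers (B1, B3, B4) of mice aged 8 weeks. Each liver is represented by 1 list of called peaks per factor. The 4 input lists come from chromatin without immunoprecipitation of 3 h livers of mice aged 7 weeks. Of these, A38 and A46 had received vehicle and D40 and D46 TCPOBOP. The liver label cannot be checked against marker genes, since no expression was measured. All positions refer to mm9, without gene names.

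TCPOBOP is a selective ligand of mouse CAR, a nuclear receptor of hepatocytes that switches on genes of drug metabolism and drives liver growth. CAR binds DNA as a pair with RXRa, which is also the partner of other nuclear receptors, so an RXR peak does not say which pair was bound. CEBPa and CEBPb are bZIP factors that recognise the same DNA motif. CEBPa is abundant in resting hepatocytes and maintains their metabolic genes, while CEBPb is known for its part in the acute phase response and in liver regeneration.

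Every 27 h liver had a CEBPb peak at 23684 regions (25.6%), so TCPOBOP-only regions are a small share of its sites. Among the TCPOBOP-only regions, 1235 (84.1%) had a peak in D1, 1290 (87.9%) in D2, 1052 (71.7%) in D3 and 1158 (78.9%) in D4. Liver D3, whose list was the shortest of the TCPOBOP lists, was the one lacking a peak at 416 of the 1137 regions called in 3 livers. D4 lacked a peak at 310 of them, D1 at 233 and D2 at 178.

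The mirror image of the rule, a peak in at least 3 vehicle livers and in 0 TCPOBOP livers, held at 309 regions, or 0.334% of all, 34 of them in 4 vehicle livers. CEBPb lists were longer in TCPOBOP livers, with 51588 peaks in D1, 55513 in D2, 45877 in D3 and 48849 in D4. In vehicle livers they held 45460 in C1, 47279 in C2, 39275 in C3 and 44791 in C4. The part of list length in the 1468 against 309 was not tested, but with every list cut to its 39275 widest peaks the counts were 692 and 561. Of the 1468 regions, 411 (28.0%) were among those 692. In bulk liver, binding in more cells and stronger binding per cell cannot be told apart.

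Just outside the rule lay 3712 regions with a CEBPb peak in 2 TCPOBOP and 0 vehicle livers, 2003 with 3 and 1, and 879 with 4 and 1. The lists hold no height or fold for a peak, so its width is the measure of size that remains. The median width percentile of TCPOBOP peaks within their own lists was 34.1 at regions called in 4 and 0 livers, 26.6 at those called in 3 and 0, and 22.4 at those called in 2 and 0. It was 33.9 at regions called in 4 and 1 livers and 70.2 at regions called in all 8. TCPOBOP-only peaks were thus narrow for their lists, and those of regions just inside and just outside the rule were of similar rank.

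**Figure D1:**
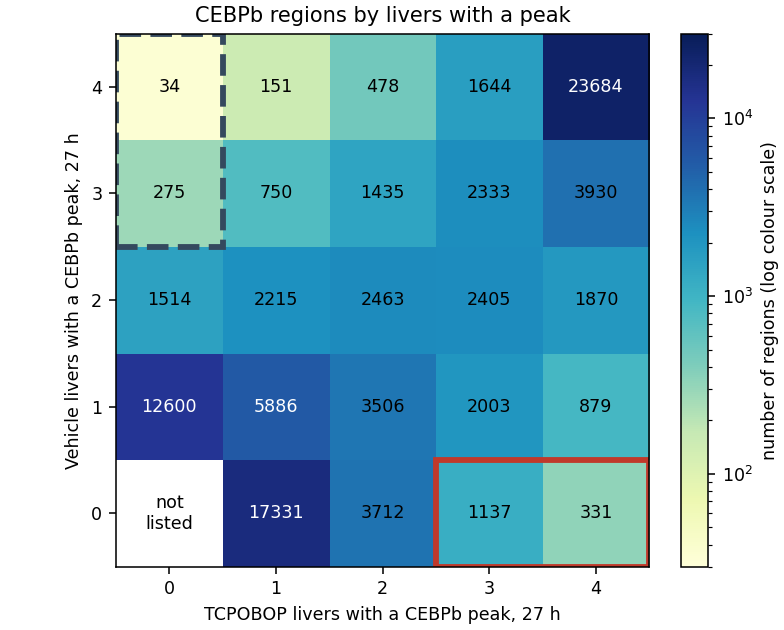
Number of CEBPb regions of 27 h by how many of 4 TCPOBOP livers (x axis) and how many of 4 vehicle livers (y axis) had a peak, with colour on a log scale. The red frame marks the 1137 and 331 TCPOBOP-only regions and the dashed frame the 275 and 34 vehicle-only regions, both far fewer than the 23684 called in all 8 livers.

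RXR, the partner of CAR, had no part in the rule, but its lists of 27 h come from the same 8 livers that chose the regions. Its contrast at that time is therefore not separate from the choice. An RXR peak of 27 h lay in 20.6% of the 1468 regions in D1, 16.5% in D2, 12.5% in D3 and 16.6% in D4. In vehicle livers it lay in 10.01% in C1, 11.7% in C2, 10.4% in C3 and 13.8% in C4. The means were 16.6% ± 3.31 and 11.5% ± 1.70 (SD, n = 4 each), 5.09 points apart, and the groups overlapped because D3 was below C4. Over all 92566 regions the means were 16.8% ± 2.63 and 17.1% ± 2.33, so RXR was not more often called in TCPOBOP livers across CEBPb regions as a whole. The RXR lists themselves were not longer after TCPOBOP, at 28401 ± 4257 peaks against 30418 ± 4426 (SD, n = 4 each).

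At the 331 regions called for CEBPb in all 4 TCPOBOP livers, RXR peaks lay in 31.1%, 23.3%, 18.4% and 22.1% of regions in D1 to D4. In C1 to C4 they lay in 11.5%, 13.3%, 9.97% and 15.7%. The lowest TCPOBOP liver was above the highest vehicle liver, and the means were 11.1 points apart. The RXR difference was 0.15 points where CEBPb was called in 1 TCPOBOP and 0 vehicle livers, 0.63 points for 2 and 0, and 3.34 points for 3 and 0. Outside the rule it was 3.98 points where CEBPb was called in 4 and 1 livers, above the value for 3 and 0, and 0.46 points for 3 and 1. Where vehicle livers alone had CEBPb, the mean RXR share was lower in TCPOBOP livers, but the groups overlapped. The difference was -2.73 points (standard error 1.83) for 0 and 3 livers and -2.21 points (standard error 2.04) for 0 and 4. Over all vehicle-only regions the shares ran from 8.41% to 13.6% in TCPOBOP livers and from 10.03% to 16.5% in vehicle livers. At regions with CEBPb in all 8 livers the difference was -0.20 points.

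**Figure D2:**
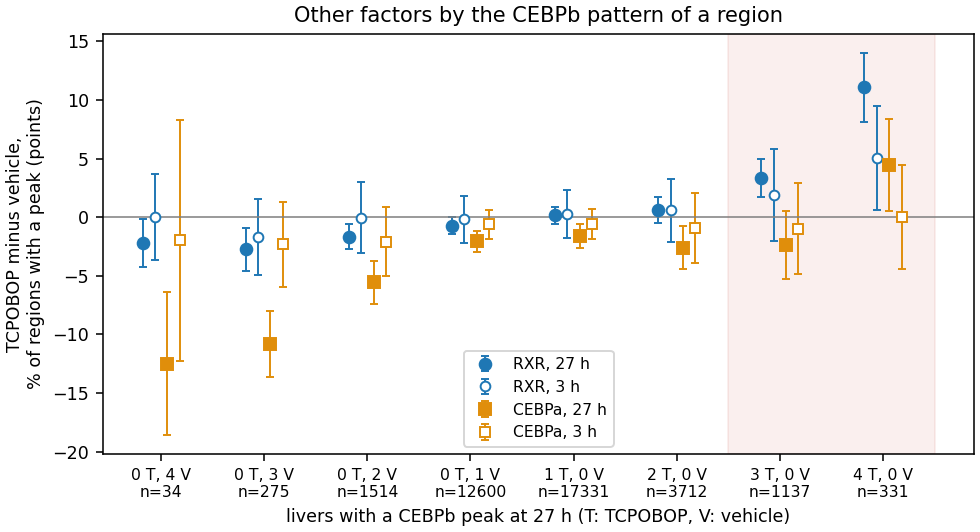
Difference between TCPOBOP and vehicle livers in the percent of regions with a peak of RXR or CEBPa (y axis, points) by the number of livers with a CEBPb peak at 27 h (x axis). Points are differences of group means, bars are the standard error of the difference over livers, filled symbols are 27 h, open symbols 3 h, and the shaded columns are the TCPOBOP-only regions; the RXR difference at 27 h was 11.1 points in the last column.

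Counted by region, more TCPOBOP than vehicle livers had an RXR peak at 226 of the 1468 regions, fewer had one at 64, the number was equal at 119, and no liver had one at 1059. Of the regions that leaned one way, 77.9% leaned to TCPOBOP, against 47.2% over all CEBPb regions (7050 and 7875). Among the 10937 other regions with CEBPb in 3 or 4 of the 8 livers, 649 leaned to TCPOBOP and 837 to vehicle (43.7%). RXR was called in 4 TCPOBOP and 0 vehicle livers at 17 of the 1468 regions (1.16%), where the share over all regions was 0.105%. The opposite pattern held at 0 of them, with 0.0562% over all regions.

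With 1 liver of tolerance, RXR was called in at least 3 TCPOBOP and 0 vehicle livers at 34 regions (2.32%), against 0.359% of all regions. The reverse held at 0 TCPOBOP-only regions and at 0.299% of all regions. Fisher's exact test was run per region on livers with and without a peak, two-sided. The 17 regions with 4 and 0 livers had an exact p = 0.0286, the smallest that 4 livers against 4 allow, and none passed Benjamini-Hochberg adjustment over 92566 regions (adjusted p = 1). Over all regions 149 reached that unadjusted p, the 17 among them.

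The regions named next were picked for RXR in at least 3 TCPOBOP and 0 vehicle livers of 27 h, mostly in order of CEBPb width percentile. At chr2:27237124-27237649 the CEBPb peaks were 491, 489, 503 and 424 bp wide in D1 to D4, and the RXR peaks 370, 353, 272 and 315 bp. At 27 h RXR was called there in 4 TCPOBOP and 0 vehicle livers and CEBPa in 3 and 1, and at 3 h RXR was called in 2 and 0. All 3 factors were therefore listed mostly in TCPOBOP livers at this region, and the 3 h lists added a CEBPb peak in 1 TCPOBOP liver. At chr3:113022765-113023184 the calls of CEBPb, RXR and CEBPa at 27 h each covered 4 TCPOBOP and 0 vehicle livers, with RXR peaks of 308, 287, 248 and 345 bp. At 3 h RXR was called there in 2 TCPOBOP livers and 1 vehicle liver, and CEBPa in 1 and 1. At chr18:4089020-4089352 CEBPb was called in 4 and 0 livers and RXR and CEBPa in 3 and 0 each. These 2 regions were the only ones of the 1468 where RXR and CEBPa both met the rule of at least 3 and 0 livers, a pair of criteria chosen after the values were seen.

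Most of the other regions named here had RXR with CEBPa in few livers or none. At chr19:33009963-33010324 RXR was called in 4 and 0 livers, with peaks of 265, 271, 232 and 232 bp, and no CEBPa peak was listed at either time. At chr1:35823161-35823537 RXR was called in 4 and 0 livers and CEBPb in 3 and 0, again with no CEBPa peak. RXR was called there at 3 h in 2 TCPOBOP livers and 1 vehicle liver. At chr3:87925514-87925946 RXR was called in 4 and 0 livers at 27 h and, at 3 h, in 3 TCPOBOP and 2 vehicle livers, so RXR had been listed there in vehicle livers of the earlier time. RXR was called at 27 h in 3 and 0 livers at chr10:98139566-98140039, chr10:7401279-7401734, chr15:40493807-40494143, chr18:5680216-5680562 and chr1:136668066-136668801. At the last of these CEBPa was also called in 3 TCPOBOP and 2 vehicle livers of 27 h. RXR of 3 h was called in 2 and 2 livers at chr10:7401279-7401734 and chr1:136668066-136668801, and in 2 and 1 at chr15:40493807-40494143. No vehicle liver of 3 h had an RXR peak at chr10:98139566-98140039 or chr18:5680216-5680562.

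A different group of TCPOBOP-only regions already held RXR in every vehicle liver. All 8 livers of 27 h had an RXR peak at 82 regions (5.59%, against 8.64% of all CEBPb regions), and 19 of them had CEBPb in all 4 TCPOBOP livers. The share of 5.59% was close to the 5.504% of the other regions with CEBPb in 3 or 4 livers. It was 6.47% at vehicle-only regions and 20.2% at regions with CEBPb in all 8 livers. At 72 of the 82 (87.8%) RXR was also called in all 6 livers of 3 h, against 91.8% of all CEBPb regions with RXR in all 8 livers. CEBPa was called in a vehicle liver of 27 h at 14 of them (17.1%), against 73.3% of all such regions and 28.6% of those among the other regions with CEBPb in 3 or 4 livers. The median RXR peak at these regions was 383 bp wide in vehicle and 438 bp in TCPOBOP livers. This difference comes from the livers that chose the regions, was not set beside other regions and was not tested. The region that ranked first of the 331 by mean width percentile is of this kind: at chr19:40301067-40301585 the CEBPb peaks were 499, 492, 516 and 448 bp wide and the RXR peaks of TCPOBOP livers 581, 588, 576 and 554 bp, with RXR listed in every liver of both times. In base pairs chr5:82369735-82370455 was wider in 3 of 4 livers, at 647, 645, 229 and 584 bp, and had no RXR peak.

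CEBPa, which shares its motif with CEBPb, differed little between TCPOBOP and vehicle livers at these regions, while its lists were on average shorter after TCPOBOP. At 27 h it was called in 14.5%, 13.3%, 12.3% and 4.02% of the 1468 regions in D1 to D4. In C1 to C4 the shares were 7.56%, 13.96%, 16.5% and 9.47%. The means of 11.0% ± 4.76 and 11.9% ± 4.08 (SD, n = 4 each) differed by -0.85 points, less than the spread between livers. Without D4, whose CEBPa list was the shortest at 20396 peaks, the difference was 1.48 points, and without C3 it was 0.69 points. Shortening every list to the same length gave 2.64 points over the 692 regions of that setting. Its direction therefore changed with single livers and in the equal-length setting, which also changed the regions.

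Over all CEBPb regions the CEBPa shares were 27.6% after TCPOBOP and 32.3% after vehicle, with overlapping groups, and without D4 the difference moved from -4.75 to -2.77 points. The CEBPa lists held 26776 ± 4255 peaks against 31984 ± 4436 (SD, n = 4 each). At other regions with CEBPb in 3 or 4 livers the shares were 10.4% and 16.8%, a difference of -6.38 points with overlapping groups. At vehicle-only CEBPb regions they were 5.18% and 16.2%. At the 331 regions with CEBPb in 4 TCPOBOP livers they were 16.9% ± 6.63 and 12.46% ± 4.30, a difference of 4.46 points with overlapping groups, and of 7.68 points without D4. By region, 107 of the 331 leaned to TCPOBOP and 58 to vehicle, whereas over all CEBPb regions 10218 leaned to TCPOBOP and 21981 to vehicle. Of the 1468 regions, 292 leaned to TCPOBOP and 328 to vehicle (47.1%), against 31.4% at the other regions with CEBPb in 3 or 4 livers. At the 1137 regions with CEBPb in 3 TCPOBOP livers, 185 leaned to TCPOBOP and 270 to vehicle (40.7%). RXR and CEBPa thus both leaned more to TCPOBOP over the 1468 than at those other regions. As for RXR, the CEBPa lists of 27 h come from the 8 livers that chose the regions. Those other regions all had CEBPb in a vehicle liver, so the CEBPa contrast is not separate from the choice either.

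CEBPa was called in 4 TCPOBOP and 0 vehicle livers at 2 of the 1468 regions (0.136%), against 0.0259% of all regions, and in 0 and 4 livers at 1, against 0.139%. With 1 liver of tolerance the counts were 8 (0.545%, against 0.176%) and 6 (0.409%, against 0.904%). None passed adjustment in Fisher's exact test (153 regions in all reached an unadjusted p = 0.0286). The 8 regions include chr12:14216580-14217028, where CEBPa was called in 4 and 0 livers at 27 h and in 2 and 0 at 3 h, while RXR was called in all 14 livers of both times. They also include chr5:67423889-67424302 and chr12:113985010-113985366, with CEBPa in 3 and 0 livers each. At chr5:55016870-55017277 and chr14:17986782-17987114 CEBPa was likewise called in 3 and 0 livers at 27 h, but at 3 h in 0 TCPOBOP livers and in 2 and 1 vehicle livers.

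**Figure D3:**
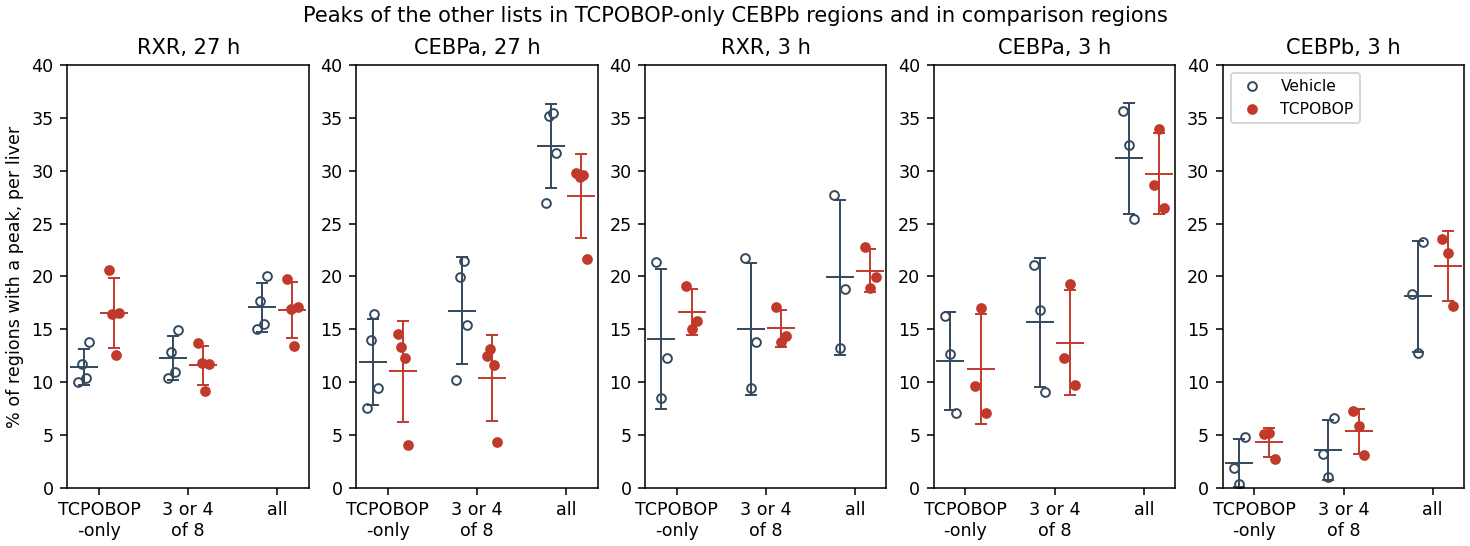
Percent of regions with a peak in each liver (y axis) for RXR and CEBPa at 27 h and for all 3 factors at 3 h, over TCPOBOP-only regions, other regions with CEBPb in 3 or 4 of the 8 livers, and all CEBPb regions (x axis). Points are livers, lines the mean and bars the SD (n = 4 at 27 h, n = 3 at 3 h); the RXR means of 27 h are 5.09 points apart in the first set, and differ by -0.71 and -0.27 points in the other sets.

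The livers of 3 h came from other animals and had no part in the choice of regions. CEBPb itself was seldom called there: 5.04%, 5.18% and 2.72% of the 1468 regions had a peak in D44, D45 and D46, and 1.84%, 0.341% and 4.77% in A44, A45 and A46. The groups overlapped, since A46 was above D46. The means of 4.31% ± 1.38 and 2.32% ± 2.25 (SD, n = 3 each) were 2.00 points apart. With lists of equal length the difference was 0.43 points, over the 692 regions of that setting, of which 411 are among the 1468. TCPOBOP lists of this factor and time were longer, at 20789 ± 3345 peaks against 17386 ± 5425. Over all CEBPb regions the shares were 21.0% and 18.1%. A CEBPb peak in any 3 h liver lay in 234 regions (15.9%), against 36.9% of all CEBPb regions and 21.2% of the other regions with CEBPb in 3 or 4 livers.

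CEBPb was called in 3 TCPOBOP and 0 vehicle livers of 3 h at 1 of the 1468 regions, against 0.258% of all regions, and in 0 and 3 at 0, against 0.0357%. In at least 2 and 0 livers it was called at 12 regions (0.817%), against 1.68% of all regions. The 0.817% was close to the 0.887% of the other regions with CEBPb in 3 or 4 livers and the 0.971% of vehicle-only regions. Among regions with CEBPb in all 8 livers of 27 h the share was 3.44%. The 12 include chr6:93277855-93278421, with no RXR or CEBPa peak in any liver, and chr15:97437389-97437859. They include chr13:59111266-59111559 and chr11:3935912-3936238, where RXR was called in 8 and 5 of the 8 livers of 27 h.

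RXR at 3 h was called in 19.1%, 15.1% and 15.8% of the 1468 regions in B1, B3 and B4, and in 21.4%, 8.51% and 12.3% in A1, A3 and A4. The vehicle livers spanned the TCPOBOP livers, with A1, whose RXR list held 52727 peaks, at the top. The means were 16.7% ± 2.18 and 14.1% ± 6.62 (SD, n = 3 each), 2.61 points apart; the difference was 6.28 points without A1 and -0.16 points without A3. By region 159 leaned to TCPOBOP and 86 to vehicle (64.9%), against 53.8% over all regions.

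RXR was called in 3 TCPOBOP and 0 vehicle livers of 3 h at 7 regions (0.477%), against 0.0789% of all regions, and in 0 and 3 at 0, against 0.0475%. With 3 livers against 3, Fisher's exact test cannot give a p below 0.1. At chr7:123505246-123505576 and chr14:24951224-24951490 RXR was called in 3 and 0 livers at 3 h and in 4 and 0 at 27 h, and at chr15:79890346-79890598 in 3 and 0 at both times. At these regions RXR was listed in TCPOBOP livers at 3 h, and CEBPb had no peak there in any liver of that time. RXR and CEBPb of 3 h came from different livers, and 84.1% of TCPOBOP-only regions had no CEBPb peak in any liver of 3 h. The order of RXR and CEBPb at these regions was therefore not tested. At chr3:142364976-142365240 RXR was called in 3 and 0 livers at 3 h and in 4 and 1 at 27 h, and at chr3:27501063-27501335 in 1 and 2 at 27 h. Taking at least 3 and 0 livers at 27 h and at least 2 and 0 at 3 h, a pair of criteria chosen after the values were seen, adds chr7:97426339-97426695 and chr11:101312812-101313070 to the regions named above, for 6 in all.

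CEBPa at 3 h was called in 9.60%, 17.03% and 7.08% of the 1468 regions in TCPOBOP livers and in 16.3%, 12.7% and 7.08% in vehicle livers. The ranges nearly coincided, and the means of 11.2% ± 5.17 and 12.01% ± 4.63 (SD, n = 3 each) differed by -0.77 points. The direction turned without D44 (0.045 points), D46 (1.31 points) or A44 (1.36 points). It was called in 3 and 0 livers at 5 regions, against 0.188% of all regions, and in 0 and 3 at 3, against 0.338%.

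Over the 34 immunoprecipitated lists other than CEBPb at 27 h, 294 of the 1468 regions (20.03%) had no peak at all, and the median region had a peak in 2 lists. Of all CEBPb regions 26.9% had none, and of the other regions with CEBPb in 3 or 4 livers 15.8%, with a median of 3 lists in both sets. RXR was called in some liver at 471 regions (32.1%) and CEBPa at 983 (67.0%), against 34.1% and 65.3% of all CEBPb regions. At the other regions with CEBPb in 3 or 4 livers the shares were 27.9% for RXR and 73.8% for CEBPa. Both were called at 300 regions (20.4%), against 27.5% of all CEBPb regions and 19.3% of the other regions with CEBPb in 3 or 4 livers. RXR without CEBPa was called at 171 regions, or 11.6%, against 6.64% of all CEBPb regions. The share was 8.55% at the other regions with CEBPb in 3 or 4 livers and 8.09% at vehicle-only regions. In vehicle livers of 27 h, where the rule demanded that CEBPb be missing, RXR or CEBPa was called at 695 regions (47.3%), against 58.2% of all CEBPb regions and 55.3% of vehicle-only regions. No input peak overlapped any of the 1468, while 497 of all CEBPb regions (0.537%) overlapped one. The input lists held only 7 to 1480 peaks each, and none came from the livers of 27 h.

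Within a liver, RXR was more often called where that liver also had the CEBPb peak. In D1 it lay in 21.9% of TCPOBOP-only regions with a CEBPb peak in D1 and in 14.2% of those without. The shares were 16.9% and 13.5% in D2, 14.1% and 8.65% in D3, and 16.8% and 15.8% in D4. For CEBPa they were 14.98% and 12.02% in D1, 14.2% and 6.74% in D2, 13.5% and 9.13% in D3, and 4.4% and 2.58% in D4. The first share was the higher for both factors in all 4 livers, with the smallest gap for RXR in D4. A region without CEBPb in one liver had CEBPb in the other 3, so the 2 sets also differ in the number of livers called.

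Where a liver had peaks of both factors, the centres of CEBPa and CEBPb peaks nearly coincided. Their median distance at TCPOBOP-only regions was 33.0 bp in D1, 30 bp in D2, 29.5 bp in D3 and 33.5 bp in D4, and 91.9% to 94.1% lay within 100 bp. RXR centres lay farther off, at medians of 74.5, 86.3, 83.3 and 72.0 bp in D1 to D4. At regions with CEBPb in all 8 livers CEBPa centres were closer, at 17 to 18.5 bp, and RXR centres at 71 to 79 bp. At the other regions with CEBPb in 3 or 4 livers CEBPa medians were 28.8 to 33 bp, like those of TCPOBOP-only regions, and RXR medians 88 to 106 bp, above them. The distances say how far apart called intervals were centred and are no measure of the sites bound within them.

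**Figure D4:**
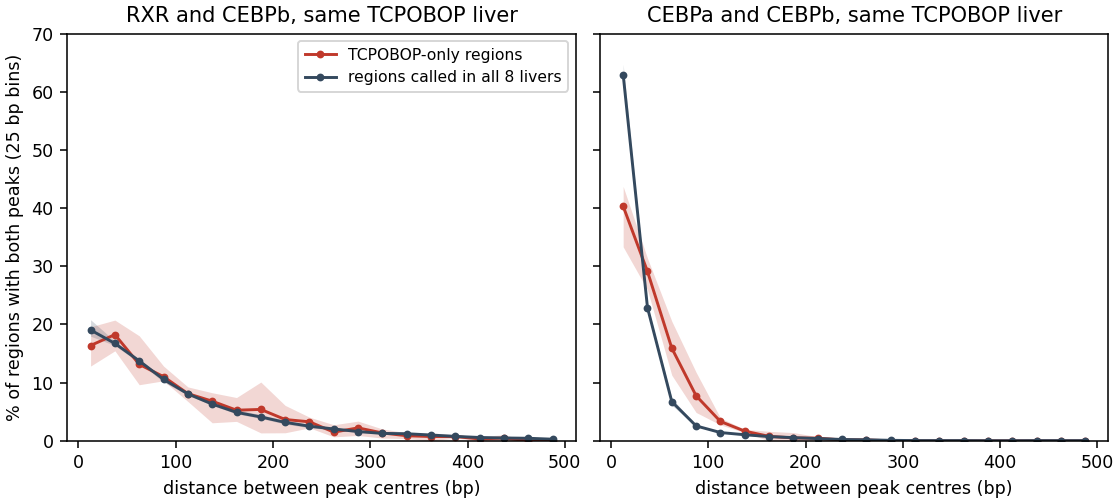
Distance between peak centres in the same TCPOBOP liver (x axis, bp) for RXR and CEBPb (left) and CEBPa and CEBPb (right), as percent of regions with both peaks in bins of 25 bp (y axis). Lines are means over 4 livers and bands their range; CEBPa centres of TCPOBOP-only regions (red) pile up near 0, somewhat more loosely than in regions called in all 8 livers (dark), while the RXR curves of both sets are broad and nearly overlie.

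TCPOBOP-only regions had a median length of 289 bp, against 293 bp for all CEBPb regions. Their peaks had median widths of 226, 231, 215 and 221 bp in D1 to D4, below the 271, 276, 270 and 274 bp of all peaks in those lists. The nearest CEBPb peak of any vehicle liver lay at a median of 7544 bp, with 80 regions (5.45%) within 500 bp of one. Over all 22511 regions without a vehicle peak the median was 8997 bp and 5.16% lay that close. A region with CEBPb in all 8 livers lay within 10 kb of 30.1% of them, against 23.9% of regions without a vehicle peak. On the chromosomes that held any, their share of CEBPb regions ran from 1.09% on chromosome 16 to 1.96% on chromosome X, and chromosome Y held 0 of its 62.

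Of the 1468 regions, 191 (13.01%) had another within 50 kb, and 5 windows of that size held at least 3. The window with most, 4 regions, was chr7:26677275-26706215, which also held 7 further CEBPb regions, 2 of them called in all 8 livers. At chr7:26679457-26679761 CEBPb was called in 4 and 0 livers and CEBPa in 2 and 0. At chr7:26686032-26686364 CEBPb was called in 4 and 0 livers at 27 h and in 2 and 0 at 3 h, and CEBPa in 3 and 0 and in 2 and 0 at these times. The second of these was thus listed in TCPOBOP livers alone for both CEBP factors and at both times.

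The other 2 regions of the window, chr7:26677275-26677483 and chr7:26705966-26706215, had CEBPb in 3 and 0 livers. None of the 4 had an RXR peak. Between them, chr7:26687212-26687481 had the reverse pattern, CEBPb in 0 and 4 livers, at 847 bp from the region called in 4 and 0. RXR was called in all 14 livers at chr7:26678245-26678578, which CEBPb also occupied in each of the 8 livers of 27 h, and at a site about 3 kb from the first region that held no CEBPb region. In this window the last RXR call ended 3.28 kb from the start of the first region. The first 2 of the 4 regions thus lay near RXR calls listed in every liver, while the others began at 8.76 and 28.7 kb.

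**Figure D5:**
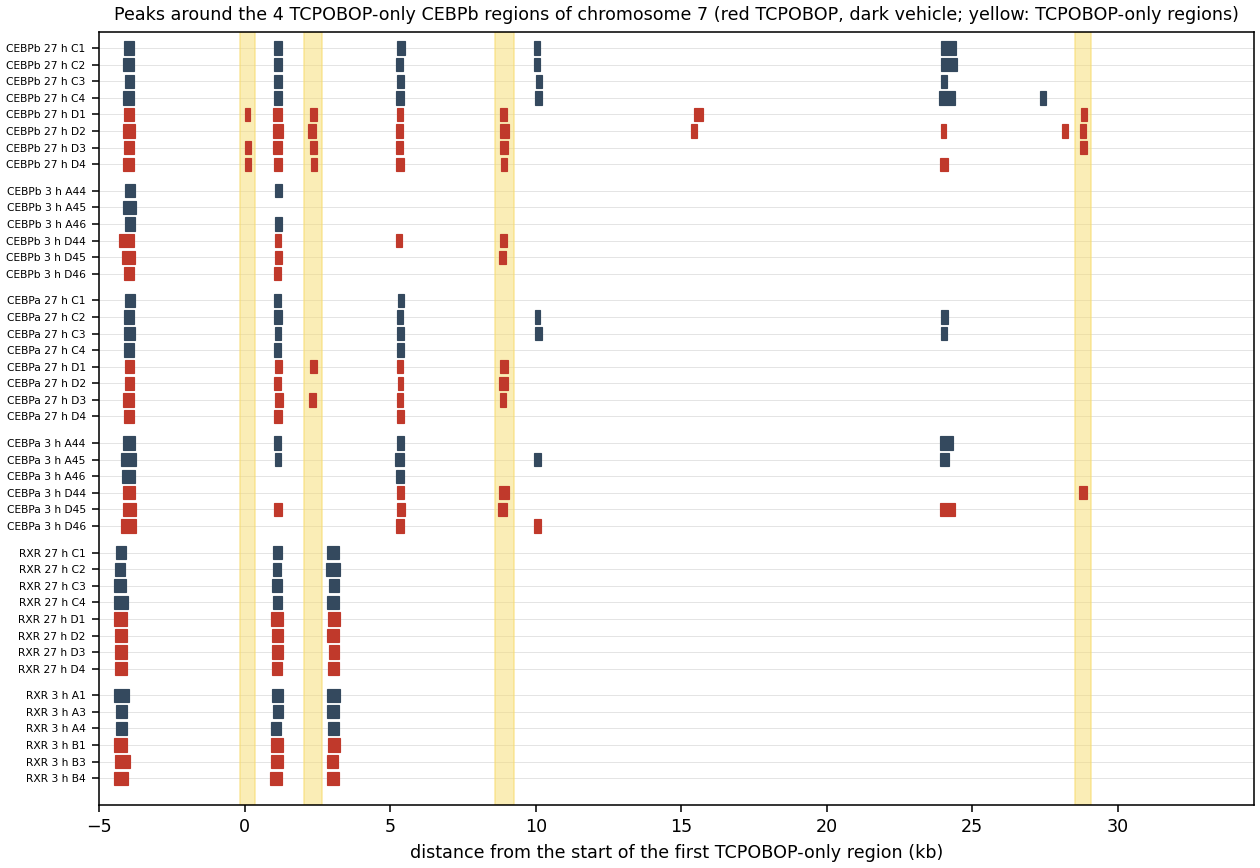
Peaks of every CEBPb, CEBPa and RXR list (rows, named by factor, time and liver) along the chromosome 7 window with 4 TCPOBOP-only regions, by distance from the start of the first (x axis, kb). Red boxes are peaks of TCPOBOP livers and dark boxes those of vehicle livers; the yellow bands, drawn slightly wider than the regions, hold red boxes alone, and the RXR boxes stand at the same places in all 14 livers.

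In the window chr2:157956094-157962320 all 3 CEBPb regions were TCPOBOP-only, each with CEBPb in 3 and 0 livers. At 2 of them, chr2:157956094-157956415 and chr2:157962041-157962320, RXR was called in all 14 livers, with widths of 674 to 736 bp and 436 to 586 bp in TCPOBOP livers of 27 h. At the one between, chr2:157959669-157960146, RXR had no peak. In the window chr3:60357044-60395723 the first of 3 regions had RXR in 4 TCPOBOP and 2 vehicle livers and the others had none.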

How the data were processed

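ChIP-seq libraries of single mouse livers were analysed as the lists of peaks the authors deposited, 1 per library, in 46 lists. Bowtie2 2.3.2 and MACS2 were used on mm9, per the submitters' processing notes. For MACS2 a version was not given in the sources used here. A list gives chromosome, start, end and name, with no score, fold, p-value or summit and no read count, so depth is unknown, and weak signal that the caller did not list cannot be seen. Starts were raised by 1 for printing.

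From these, CEBPb peaks of the 8 livers of 27 h were merged at an overlap of at least 1 bp, and a list counted as called in a region when 1 of its peaks overlapped it by at least 1 bp. Calls were tested per region with Fisher's exact test over livers (two-sided, Benjamini-Hochberg over 92566 regions); other values are descriptions. Livers were grouped by the labels, and at 27 h the CEBP lists share 1 sequencing lane and the RXR lists another, each holding both treatments. The labels call the livers individual samples. The members and lists were chosen with earlier results of these data known. Named regions were taken by rule. Some came from the 10 widest by mean width percentile with CEBPb in 4 TCPOBOP livers, and not all of those are named. The widest left unnamed had no RXR peak at 27 h, or had RXR in 4 TCPOBOP and 2 vehicle livers. Others were those with RXR, CEBPa or earlier calls in TCPOBOP livers alone, in the same order. The rest came from the 50 kb windows with most regions. Alternatives were another minimum number of livers, a stricter overlap, peaks shortened by 50 bp at each end, lists cut to equal length, removal of input peaks, each liver left out, and a replicate block. Gene lists, gene names, motifs and sequences need an mm9 genome or annotation and were not analysed here. The scripts were tested on simulated lists. Calculations used pandas 2.3.3, scipy 1.17.1, numpy 2.4.6 and Python 3.11.15.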

Additional observations from a re-analysis of the deposited data

Results flagged for a closer look

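In 5 of the groups of 4 livers tested, 1 liver stood far from the others, and each time it was the CEBPa list of TCPOBOP liver D4 at 27 h; chance gives such a flag in about 1 of 20 groups, and the 5 values share that list and are not independent. The list held 20396 peaks. It had a peak in 21.6% of all CEBPb regions, in 70.5% of those called in all 8 livers and in 4.3% of the other regions called in 3 or 4 livers. Among the TCPOBOP-only regions with a CEBPb peak in D4 it had a peak in 4.4%.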

How the results depend on the processing

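Of 58 alternatives other than leaving out a liver, 44 stayed close to the reported value and 14 moved. The number of TCPOBOP-only regions was 331 when all 4 livers were required, 5180 with 2, and 692 with lists of equal length; the vehicle-only number was 34, 1823 and 561. The RXR difference at 27 h was 11.1 points, and that of CEBPa 4.46 points, when all 4 livers were required. Regions with RXR in 4 and 0 livers numbered 10 when all 4 CEBPb livers were required, 12 at equal length and 34 with at least 3 and 0; the numbers for CEBPa were 0 at equal length and 8 with at least 3 and 0. With a replicate block, livers paired by number, the smallest p is 0.125, so 0 regions could reach 0.05 for RXR and 0 for CEBPa. Same-numbered livers correlated at 0.00489 to 0.0160, and the other pairs at -0.00714 to 0.00512. D1, D2 and D4 correlated best with their own number, and D3 did not. All values were small and the numbers were not taken to pair the livers, but whether they share a block was not tested.

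Leaving out each liver gave 509 (without D2) to 2325 (without C2) TCPOBOP-only regions and 85 (without C4) to 603 (without D2) vehicle-only regions; a TCPOBOP liver left out means that all 3 others were required, and a vehicle liver left out loosens the rule by construction. The differences at 27 h were 3.73 to 6.43 points for RXR and -2.29 to 1.48 points for CEBPa. At 3 h they were -0.159 to 6.28 points for RXR, -3.67 to 1.36 for CEBPa and 1.01 to 3.22 for CEBPb. Regions in 4 and 0 livers numbered 17 to 29 for RXR, with 29 without D3, and 2 to 6 for CEBPa, with 4 without D3 and 6 without D4. Unknown depth limits every absent call.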
